A study of Mus musculus with 2 samples.

Results

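Clustered histone genes were read on 2 microarrays of mouse olfactory bulb RNA, 1 from a mouse kept under odor-enriched conditions and 1 from a control mouse. Members were the non-control probes whose gene name begins with Hist1h to Hist4h followed by a histone type, H1, H2A, H2B, H3 or H4. This gave 56 genes, carried by 68 probes and 77 spots, of 37074 gene names and 56605 probes on the array. Of the 56 genes, 50 had at least 1 probe well above background on both arrays, and 59 of the 68 probes passed that filter.

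The study compared the bulb of an odor-stimulated mouse with that of a mouse in standard odor conditions. Each condition had 1 mouse and 1 array, so no test between the conditions was possible, and every difference below describes these 2 arrays only. The sample labels speak of bulb neurons, but the RNA source they give is the whole bulb, and no sorting step is described. The sources used here do not give the strain, the age, the sex, the odorant or how long stimulation lasted.

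Histones are the proteins that package DNA: H2A, H2B, H3 and H4 form the core of the nucleosome, and H1 binds the linker DNA between nucleosomes. Most clustered histone genes are transcribed mainly during S phase, when new DNA needs new histones, and their mRNAs end in a conserved stem-loop in place of a poly(A) tail. Some of them also give longer polyadenylated transcripts in cells that have stopped dividing, and Hist2h2be encodes H2BE, an H2B variant known from mouse olfactory sensory neurons, where its level depends on sensory activity. The RNA was labelled from an oligo-dT primer per the labels' protocols, so transcripts with and without a poly(A) tail need not have been primed alike.

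All levels are log2 processed signals minus the 75th percentile of that array, so a level of 0 is the 75th percentile. A difference is the level in the odor-enriched bulb minus that in the control bulb, and a difference of 1 or more in size is a 2-fold one. A gene's level is the mean over its probes that were well above background on both arrays. Over all 23872 genes measured this way the median difference was 0.00, 11.5% were higher by 2-fold or more in the odor-enriched bulb, 5.52% were at least 2-fold lower and 50.1% lay above 0.

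The sequences below show why levels of single members have to be read with care. Core histone genes of a type encode nearly the same protein, and 19 of the 68 probes list RefSeq transcripts of several genes in the file's annotation. The 5 H2A probes printed here, each 60 bases long and written 5′ to 3′ as the array file gives them, carry the same run of 27 coding bases, which is in capitals.
Hist1h2aa: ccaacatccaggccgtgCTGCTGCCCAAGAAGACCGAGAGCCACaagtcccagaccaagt
Hist1h2af: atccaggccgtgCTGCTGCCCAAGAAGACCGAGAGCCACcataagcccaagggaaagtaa
Hist1h2ag: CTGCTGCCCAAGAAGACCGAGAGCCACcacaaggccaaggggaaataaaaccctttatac
Hist1h2ah: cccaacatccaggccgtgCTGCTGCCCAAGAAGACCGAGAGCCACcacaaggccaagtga
Hist2h2ac: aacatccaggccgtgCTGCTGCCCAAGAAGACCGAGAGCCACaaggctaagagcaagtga
In mm9 the file places Hist1h2aa at chr13:24026659-24026718 (plus strand), Hist1h2af at chr13:23626113-23626172 (plus strand), Hist1h2ah at chr13:22127035-22127094 (minus strand) and Hist2h2ac at chr3:96024378-96024437 (minus strand). It gives Hist1h2ag a span far longer than a probe, chr13:23666685-23726365 (plus strand). Signals of such probes may add up transcripts of several genes, and these members are best taken as a group.

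Other probes reach past the stop codon into the end of the mRNA. The start of the histone stem-loop, searched as AAAGGCTCT on the probe strand only, was in 34 of the 56605 probes on the array (0.0601%), and 9 of the 34 were members. They are shown because they reach the stem-loop of these mRNAs. A longer transcript that runs past the stem-loop would hold the same bases, so these probes do not separate short from longer transcripts. Each line holds at most 30 bases of the probe, with the 9 searched bases in capitals.
Hist1h1c: gcctcccctaacaatccaAAAGGCTCTttt
Hist1h2ab: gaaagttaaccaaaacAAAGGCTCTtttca
Hist1h2ai: cattacgaatcaccAAAGGCTCTtttcaga
Hist1h2bf: tcctaacccAAAGGCTCTtttcagagccac
Hist1h3a: gaattaaccAAAGGCTCTtttcagagccac
Hist1h3g: aaccactttAAAGGCTCTtcttagagccac
Hist1h3i: ttaataacaAAAGGCTCTtttcagagcccc
Hist2h2bb: ctttacccaAAAGGCTCTtttcagagccac
Hist3h2ba: agcgcccccaacccAAAGGCTCTtttcaga
The word AATAAA, the usual signal for adding a poly(A) tail, was in 5529 probes (9.77%), of which 4 were members. It was in the later probes of Hist2h2be, Hist2h2bb and Hist3h2ba and in the Hist1h2ag probe printed above. Up to 30 bases around it are shown for the 3 later probes, with the word in capitals.
Hist2h2be: gatcgAATAAAtccattcactgcatgtgca
Hist2h2bb: gtcagtttgAATAAAgacagagaaactgat
Hist3h2ba: gttcataatggtattAATAAAtttggttca

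Across all types, 10 of the 50 measured histone genes were higher by 2-fold or more in the odor-enriched bulb, where 11.5% of all measured genes were, and 2 were at least 2-fold lower, where 5.52% were. The other 38 differed by less than 2-fold. The median difference was 0.60, with quartiles of 0.13 and 0.92, against quartiles of −0.40 and 0.47 over all genes. Of the 50 genes, 38 lay above 0 and 12 below, and the differences ran from −2.22 for Hist2h2be to 2.43 for Hist1h2ab. The median over H1 genes was 0.95, over H2A genes 0.88, over H4 genes 0.69, over H3 genes 0.55 and over H2B genes −0.02. In a bulk sample, a different number of cells of a type and a different amount of RNA per cell cannot be told apart.

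**Figure D1:**
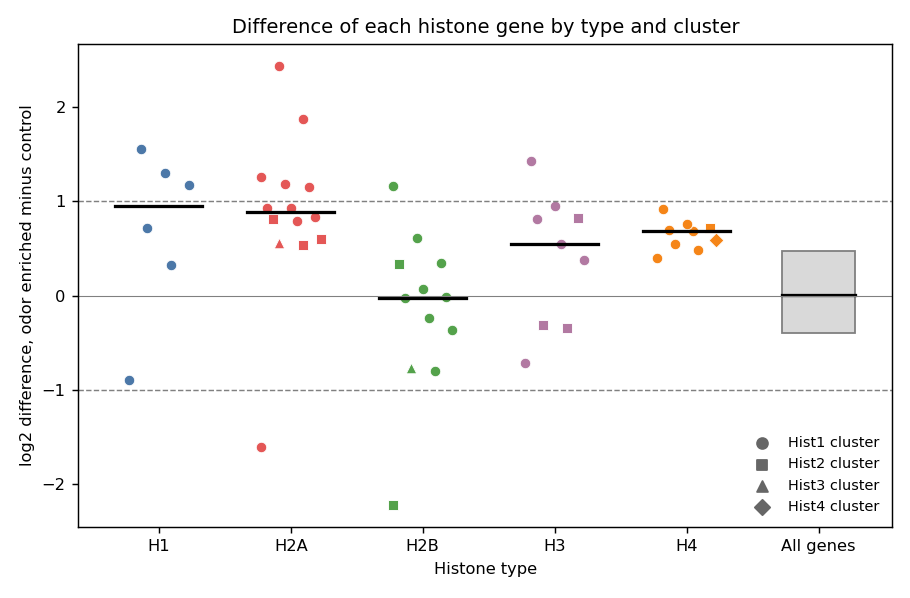
Log2 difference, odor enriched minus control, for each of 50 histone genes by type (points, shaped by cluster), with the median of each type as a black bar and the quartiles and median of all measured genes as the grey box, and dashed lines at 2-fold. All 9 H4 genes sit between 0.39 and 0.92, whereas the 12 H2B genes are spread on both sides of 0, from −2.22 to 1.17.

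The precision of a single value is that of the arrays, not of the mice. One Hist1h4d probe was spotted 10 times on each array. Its level was 6.98 ± 0.04 in the odor-enriched bulb and 6.31 ± 0.03 in the control bulb (SD over 10 spots), and the difference per spot was 0.67 ± 0.05, from 0.62 to 0.78. Different probes of the same gene varied far more: the pooled SD of the difference between probes of a gene was 0.63 over 8234 genes with several probes, and 0.45 over the 9 histone genes that had several. Differences between single genes of less than about this size are within the spread between probes.

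All 6 linker histone genes, the H1 type, were measured, and all lie in the Hist1 cluster. Of these 3 were at least 2-fold higher where 11.5% of all genes were, 1 lay below 0, and the highest was Hist1h1b. Hist1h1b, which encodes the somatic linker histone H1.5, had a level of 1.18 in the odor-enriched bulb and −0.37 in the control bulb, a difference of 1.55 or 2.93-fold. Its probe lies at chr13:21871923-21871982 (mm9, minus strand). Hist1h1a, which encodes H1.1, had levels of −2.12 and −3.41 in the odor-enriched and control bulb, a difference of 1.30. This probe was dim, and with a background correction that damps dim signals the difference was 0.67.
Hist1h1d, which encodes H1.3, had a level of −0.64 in the odor-enriched bulb and −1.81 in the control bulb, a difference of 1.17. That value rests on 1 probe; a further probe, far downstream in the transcript, was above background on neither array, and the difference was 0.26 when it was admitted and 0.74 with the damping correction. Hist1h1t, a testis linker histone, differed by 0.72. Hist1h1e, which encodes H1.4, was the exception among the linker histones, with a level of 2.55 in the odor-enriched bulb and 3.44 in the control bulb, a difference of −0.89. Hist1h1c, which encodes H1.2, had 2 probes of opposite sign and is described with the probe positions.

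The H2A genes, the largest type, held the most members past 2-fold by count but not by share. Of 18 on the array 14 were measured, 13 lay above 0, 5 were at least 2-fold higher and 1 was at least 2-fold lower. The share at least 2-fold higher was 35.7%, beside 50% of H1 genes and 11.5% of all genes, and 5.52% of all genes were at least 2-fold lower. Hist1h2ab had the largest difference of all histone genes, with a level of 3.90 in the odor-enriched bulb and 1.47 in the control bulb, 2.43 or 5.40-fold. Its probe, at chr13:23843392-23843451 (mm9, plus strand), is one of those that hold the stem-loop start. Hist1h2ai followed, with a level of −0.81 in the odor-enriched bulb and −2.68 in the control bulb, a difference of 1.87 or 3.65-fold.
The file maps this Hist1h2ai probe to chr13:21902706-21902779 (mm9, plus strand), a window that overlaps those of the probes for Hist1h2an and Hist1h2ao, so the 3 may read the same transcripts. A further Hist1h2ai probe, from base 713 of its transcript, is placed elsewhere, at chr13:21808994-21809053, and was well above background on neither array. Whether both probes read the same gene could not be checked. The gene's difference was 0.89 when the further probe was admitted, with no filter on dim probes or with the scanner's less strict positive-and-significant flag. Hist1h2an had a level of 5.82 in the odor-enriched bulb and 4.67 in the control bulb, a difference of 1.15, which was 0.97 with each array centred on its median. Hist1h2ao was close to it, with levels of 5.71 and 4.53 in the odor-enriched and control bulb, a difference of 1.19.

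Among the 5 H2A probes with the common run of 27 bases, Hist1h2ag had a level of 6.19 in the odor-enriched bulb and 4.94 in the control bulb, a difference of 1.25. The other 4 had differences of 0.79 for Hist1h2aa, 0.81 for Hist2h2ac, 0.84 for Hist1h2af and 0.93 for Hist1h2ah. All 5 lie above the upper quartile of all genes. Hist1h2aa is known as a testis-type H2A, and its probe shares a run of 45 bases with that of Hist2h2ac, and which H2A mRNAs gave its signal was not tested. Of the rest, Hist1h2ak differed by 0.93, Hist2h2aa2 by 0.60, Hist3h2a by 0.55 and Hist2h2ab by 0.54.
Hist1h2ac was the single H2A gene below 0. Its level was −3.96 in the odor-enriched bulb and −2.36 in the control bulb, a difference of −1.61, and the signal was dim on both arrays. With the damping background correction the difference was −0.35. Its one probe starts at base 2426 of the transcript, at chr13:23773343-23773402 (mm9, minus strand), far beyond the coding region.

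The H2B genes were the type with no shared direction. Of 14 on the array 12 were measured, 5 lay above 0 and 7 below, with 1 gene past 2-fold each way. These counts are close to the shares over all genes, 11.5% higher and 5.52% lower. Hist1h2bf had a level of −0.31 in the odor-enriched bulb and −1.47 in the control bulb, a difference of 1.17 or 2.24-fold, read by a probe with the stem-loop start; with the damping correction it was 0.82. Hist1h2be followed with a difference of 0.61, and Hist1h2bg, Hist1h2bm and Hist1h2bn lay at 0.06, −0.03 and −0.23. Hist1h2bc, one of the H2B genes known for polyadenylated transcripts outside S phase, had a level of 4.90 in the odor-enriched bulb and 4.56 in the control bulb, a difference of 0.34. Below 0 were also Hist1h2ba, a testis H2B, at −0.37, Hist3h2ba at −0.77 and Hist1h2bq at −0.80.

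Hist2h2be, the gene of the olfactory variant H2BE, stood at the low end of all histone genes, and both of its probes gave nearly the same value. The first probe, at chr3:96027381-96027440 (mm9, plus strand), had a level of 0.98 in the odor-enriched bulb and 3.24 in the control bulb, a difference of −2.26. The second probe, at chr3:96027578-96027637, had a level of 1.46 in the odor-enriched bulb and 3.63 in the control bulb, a difference of −2.17. The gene's mean was 1.22 in the odor-enriched bulb and 3.44 in the control bulb, a difference of −2.22, which makes the odor-enriched level 4.66-fold lower. The probes start at bases 2337 and 2534 of the transcript, and the second holds the AATAAA shown above.
Markers of olfactory sensory neurons moved the same way on these arrays. Of 18 such genes 16 were measured, 15 of them lay below 0, 9 were at least 2-fold lower and 1 was at least 2-fold higher, with a median of −1.43, or −0.69 with the damping background correction. Their mean level was 0.03 in the odor-enriched bulb and 1.11 in the control bulb, and a further 2, Cnga4 and Rtp1, were above background in the control bulb only. Omp, a cytoplasmic protein by which mature sensory neurons are recognised, had a level of 5.48 in the odor-enriched bulb and 8.16 in the control bulb, a difference of −2.68. Nqo1, an enzyme of the dorsal sensory neurons, differed by −1.90, while Gap43, a growth protein of young axons, differed by −0.02 and Ebf1, a transcription factor of the lineage, by 1.64. The part of these cells in the Hist2h2be difference was not tested.

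All 9 H3 genes were measured. Of these 6 lay above 0 and 3 below, and 1 was at least 2-fold higher, close to the 11.5% of all genes. Hist1h3c, which encodes a replication-dependent H3, had a level of 2.21 in the odor-enriched bulb and 0.78 in the control bulb, a difference of 1.42 or 2.68-fold, from a probe at chr13:23836950-23837009 (mm9, minus strand). Hist1h3a differed by 0.95, Hist2h3b by 0.83, Hist1h3i by 0.81, Hist1h3d by 0.54 and Hist1h3f by 0.37. The 3 genes below 0 were Hist1h3g at −0.71, Hist2h3c2 at −0.34 and Hist2h3c1 at −0.31.

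The H4 genes were the most alike of the 5 types. All 9 were measured, all 9 lay above 0 where 50.1% of all genes did, and none was past 2-fold, where 11.5% of all genes were at least 2-fold higher. H4 is the core histone with the fewest variants, and its genes encode nearly the same protein. Hist1h4c had the highest difference, with a level of 0.92 in the odor-enriched bulb and 0.01 in the control bulb, 0.92. Hist1h4m had the lowest, 0.39. Between them lay Hist1h4d at 0.76, Hist2h4 at 0.71, Hist1h4j at 0.70, Hist1h4k at 0.69, Hist4h4 at 0.59, Hist1h4i at 0.55 and Hist1h4h at 0.48. Several H4 probes list transcripts of up to 4 genes, so these 9 values are not independent of each other.

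**Figure D2:**
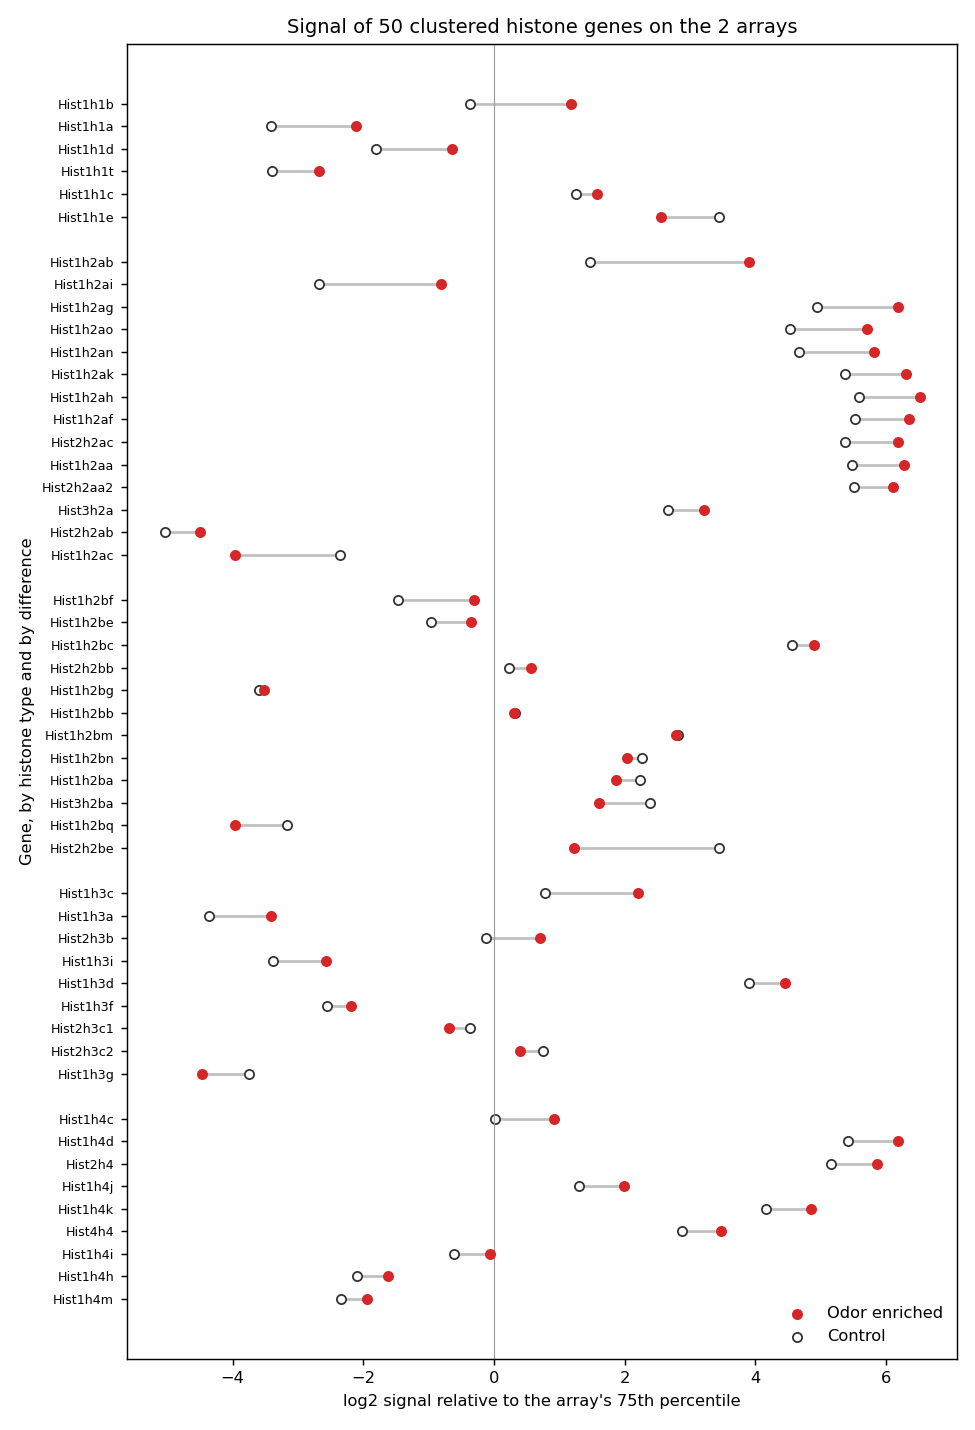
Level of each of the 50 measured histone genes in the odor-enriched bulb (red points) and the control bulb (open points), as log2 signal relative to the 75th percentile of the array, grouped by type and sorted by difference. The joined pairs are widest for Hist1h2ab (3.90 and 1.47) and, in the opposite direction, for Hist2h2be (1.22 and 3.44).

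By cluster, all 10 genes past 2-fold on the high side belonged to Hist1, the large cluster on chromosome 13. Of its 42 genes 38 were measured, 30 lay above 0, 26.3% were at least 2-fold higher where 11.5% of all genes were, and the median was 0.71. In the Hist2 cluster on chromosome 3, 9 of 10 genes were measured, 6 lay above 0, none was at least 2-fold higher and the median was 0.54. With 9 genes, a count of none is close to the 11.5% share over all genes. The Hist2 gene Hist2h2bb had a probe past 2-fold, at 1.03, which was averaged with a later probe at −0.36. Taking only the brightest probe of each gene gave 11 genes past 2-fold on the high side, Hist2h2bb among them. The 2 measured Hist3 genes on chromosome 11 went opposite ways, Hist3h2a at 0.55 and Hist3h2ba at −0.77, and Hist4h4 on chromosome 6 was at 0.59.
The H2A and H3 types had lower medians in Hist2 than in Hist1, 0.60 over 3 genes against 1.04 over 10 for H2A. For H3 they were −0.31 over 3 genes against 0.68 over 6. The H3 clusters also differed in probe position. The Hist2h3c1 and Hist2h3c2 probes started at base 746 or later, and the Hist1 H3 probes at base 440 or earlier. Hist2h3b, read from base 304, was at 0.83. Cluster and probe position therefore cannot be fully told apart for H3. The H2A values do not cleanly separate the clusters either. The Hist2h2ac probe shares a run of 45 bases with that of the Hist1 gene Hist1h2aa, and the Hist2h2aa2 probe shares 29 bases with it. Hist2h2ab was dim, with a level of −4.51 in the odor-enriched bulb and −5.04 in the control bulb. Within Hist1 the probes fell into separate stretches of chromosome 13 in mm9. The one from 21808994 to 22133198 had 15 measured probes, 4 of them at least 2-fold higher, and a median of 0.80. The one from 23622937 to 24026718 had 27 measured probes, 6 at least 2-fold higher and 1 lower, and a median of 0.67. Higher values were thus found in both stretches, and Hist1h2al alone lay elsewhere on the chromosome and was not above background.

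The other 6 genes had no probe above background on both arrays. Hist1h2ae and Hist1h2bp were well above background in the control bulb only, as 7.29% of all genes were, and neither allowed any bound on a fold. The lowest level that passed the flag was −4.66 in the odor-enriched bulb and −5.69 in the control bulb. Hist1h2bp had the higher level in the odor-enriched bulb, −4.71 against −5.37, so its flag does not mean a lower level there. Hist1h2ae had −6.55 in the odor-enriched bulb and −5.66 in the control bulb. None was above background in the odor-enriched bulb only, as 1.21% of all genes were. Hist1h2ad, Hist1h2al, Hist2h2aa1 and Hist3h2bb-ps, the last a pseudogene by its name, were above background on neither array.

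The position of the probe in the transcript went with the direction of the difference. The split given here was chosen after the values were seen: probes starting at base 500 or later for core histones, and at base 1000 or later for the longer H1 transcripts, lie downstream of where the short coding region usually ends. Of 20 such late probes 14 were measured, 5 lay above 0 and 9 below, none was at least 2-fold higher where 11.6% of all probes were, and 3 were at least 2-fold lower where 6.51% of all probes were. Their median was −0.34. Of the 48 earlier probes 45 were measured, 38 lay above 0 and 7 below, 11 were at least 2-fold higher and none was lower, with a median of 0.79.
The late probes included Hist2h2be and Hist1h2ac, the 2 genes past 2-fold on the low side. With the core-histone limit at base 600, also chosen after the values were seen, the medians were −0.36 over 11 late core probes and 0.71 over 41 earlier ones, and at base 700 they were −0.53 over 10 and 0.70 over 42. The earlier probes that list 1 RefSeq gene had a median of 0.74 over 27, and those that list several had 0.81 over 18. Within types, the late and earlier medians were −0.31 over 3 and 0.81 over 7 probes for H3, and −0.51 over 8 and −0.10 over 8 for H2B. The 3 late H3 probes are all from the Hist2 genes Hist2h3c1 and Hist2h3c2. Earlier probes of the remaining types had medians of 0.96 for H1 over 6, 0.93 for H2A over 13 and 0.67 for H4 over 11. The H2B genes thus had many late probes, and their earlier probes also had the lowest median of the 5 types.

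**Figure D3:**
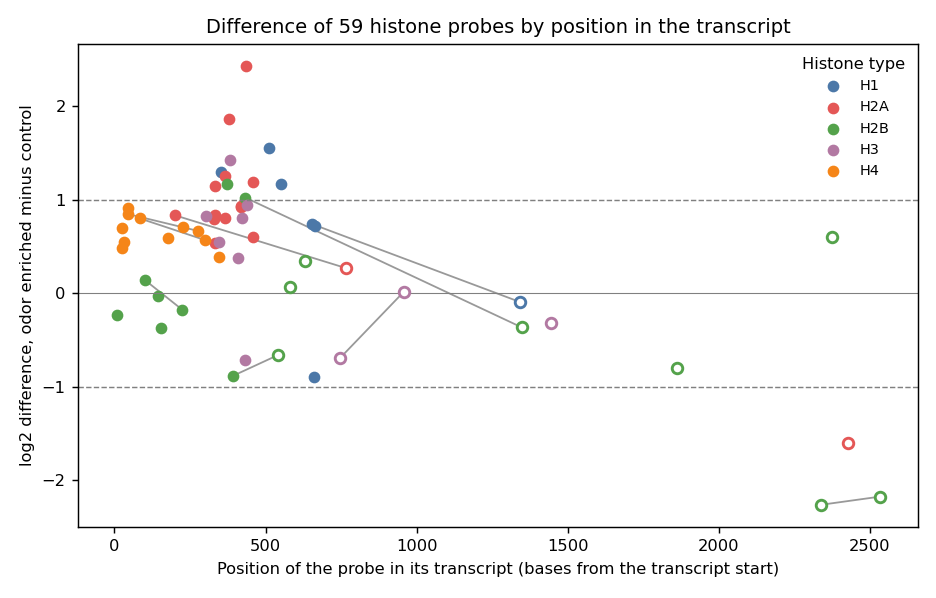
Log2 difference, odor enriched minus control, of 59 histone probes against the position of the probe in its transcript in bases, coloured by type, with late probes as open points and probes of 1 gene joined by a line. Probes past 2-fold on the high side all lie among the earlier 45, and the 14 late ones run from −2.26 to 0.61.

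Genes with several probes let this be seen within a gene. Hist1h1c had a level of 0.89 in the odor-enriched bulb and 0.15 in the control bulb at its stem-loop probe (base 654, chr13:23831330-23831389, mm9, plus strand), a difference of 0.74. At its downstream probe (base 1341, chr13:23832018-23832077) the levels were 2.28 in the odor-enriched bulb and 2.37 in the control bulb, a difference of −0.09. The mean of both was 0.32.
Hist2h2bb had a level of 0.99 in the odor-enriched bulb and −0.03 in the control bulb at its stem-loop probe (base 433, chr3:96074056-96074115, mm9, plus strand), a difference of 1.03. At the probe with AATAAA (base 1348, chr3:96082754-96082813) the levels were 0.13 in the odor-enriched bulb and 0.49 in the control bulb, a difference of −0.36. In both genes the probe at the stem-loop was higher in the odor-enriched bulb and the downstream probe was not. Unlike those of Hist1h1c, the Hist2h2bb probes lie much further apart in the genome than in the transcript. Hist3h2a also had the higher value at its earlier probe, 0.84 against 0.27 at the later one.
Some genes did not follow that order. Hist3h2ba was lower in the odor-enriched bulb at its stem-loop probe, −0.88, and at its AATAAA probe, −0.66. The 2 Hist2h3c2 probes, both late, had levels of −0.194 and 1.001 in the odor-enriched bulb and 0.499 and 0.986 in the control bulb, which gave differences of −0.69 and 0.02. The later Hist2h2be probe also had the higher value, −2.17 against −2.26. Other genes did follow the order, with a later minus earlier difference of −0.23 for Hist1h4k and −0.18 for Hist1h4d. The 2 Hist1h2bb probes, at bases 101 and 224, had levels of −2.58 and 3.20 in the odor-enriched bulb and −2.72 and 3.38 in the control bulb, which gave 0.14 at the earlier probe and −0.17 at the later one.
Over the 9 histone genes with probes at least 100 bases apart, the later probe minus the earlier one had a median of −0.23 and was below 0 in 66.7%. Over 7847 other genes with such pairs the median was −0.16 and 59.0% were below 0, so later probes were lower across the array too. RNA integrity was not analysed here.

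The 9 probes that hold the stem-loop start were all measured. Of these, 7 lay above 0 and 4 were at least 2-fold higher, beside 11.6% of all probes, with a median of 0.95. Their differences were 2.43 for Hist1h2ab, 1.87 for Hist1h2ai, 1.17 for Hist1h2bf, 1.03 for Hist2h2bb, 0.95 for Hist1h3a, 0.81 for Hist1h3i, 0.74 for Hist1h1c, −0.71 for Hist1h3g and −0.88 for Hist3h2ba. The 3 late probes with AATAAA lay at −2.17, −0.36 and −0.66. Genes of 4 types are among the stem-loop probes, while no H4 probe held those letters.

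Promoter sequence separated the types in another way. RefSeq promoters (GRCm38.p6, 250 bases before to 50 after the gene start) matched 49 of the 56 genes. CCAAT, the box bound by NF-Y, was found on either strand in 43 of the 49 (87.8%), against 37.9% of 27025 promoters. TATAAA was in 29 (59.2%), against 14.2%, and the octamer ATTTGCAT, known from H2B promoters as a site for Oct1, was in 12 (24.5%), against 1.75%. The octamer was found in 7 of 17 H2A and 5 of 11 H2B promoters and in no H1, H3 or H4 promoter.
CCAAT was in all 6 H1, 17 H2A, 11 H2B and 7 H3 promoters but in 2 of 8 H4 promoters. The 150 bases before the start are printed for Hist1h2ab, the member with the largest difference, and Hist1h4c, the highest H4, with these motifs on either strand in capitals.
Hist1h2ab: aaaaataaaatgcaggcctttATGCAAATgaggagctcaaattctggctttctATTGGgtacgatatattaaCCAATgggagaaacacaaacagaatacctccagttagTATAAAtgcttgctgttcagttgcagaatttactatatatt
Hist1h4c: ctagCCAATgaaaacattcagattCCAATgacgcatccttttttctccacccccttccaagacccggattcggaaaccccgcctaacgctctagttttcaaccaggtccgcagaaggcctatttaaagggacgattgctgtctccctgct
They lie at chr13:23750938-23751087 (plus strand) and chr13:23698459-23698608 (minus strand) of that build. H2A and H2B promoters carried much the same motifs. The matched H2B promoters do not include those of Hist2h2be and Hist1h2bc. Whether these motifs go with the differences between the arrays was not tested. A match of letters is a description of the window and not a measured site.

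Genes listed for DNA replication and S phase, the phase in which these histones are made, lay on the same side. The list also holds genes of mitosis and of dividing cells in general, such as Ccnb1, Aurkb and Mki67. Of 24 listed genes 23 were measured, all 23 lay above 0, and 13 were at least 2-fold higher where 11.5% of all genes were. The median was 1.06, or 0.76 with the damping background correction. Mcm6, a subunit of the replicative helicase, had a level of 2.30 in the odor-enriched bulb and 0.17 in the control bulb, a difference of 2.13. Cdt1, which loads that helicase, differed by 1.84. The lowest were Gins2 and Pcna, the replication clamp, both at 0.33, and Ccne2 was above background on neither array. All of these values come from the same 2 arrays as the histone values.

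The genes that make and trim histone mRNAs did not share this pattern. Of 13 listed and measured genes none was past 2-fold, 3 lay above 0 and 10 below, and the median was −0.18. Zfp473, the U7 snRNP-associated zinc finger protein, was highest at 0.88, followed by Slbp, the stem-loop binding protein, with a level of −1.56 in the odor-enriched bulb and −2.02 in the control bulb, a difference of 0.46. Npat, the coactivator of histone gene transcription, was lowest at −0.68, and Sympk, a scaffold of the cleavage complex, lay at −0.53.

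Among histone chaperones and assembly factors, 16 of 16 were measured, 1 was at least 2-fold higher and 2 were lower, with a median of −0.04. Asf1b and Asf1a, paralogous H3-H4 chaperones, went opposite ways. Asf1b, known from dividing cells, had a level of −0.39 in the odor-enriched bulb and −1.45 in the control bulb, a difference of 1.06. Asf1a had a level of −2.023 in the odor-enriched bulb and −1.001 in the control bulb, a difference of −1.02. Chaf1b, a subunit of the replication-coupled assembly factor CAF-1, differed by 0.98, and Supt16, a subunit of the FACT complex, by −1.34.

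Replacement histones, which can also be made outside S phase and come from genes away from these clusters, had a median of 0.21 over 11 measured of 14 listed. Of these, 2 were at least 2-fold higher and none was at least 2-fold lower. Of those not measured, 1 was above background in the odor-enriched bulb only, 1 in the control bulb only and 1 on neither array. Over all genes 1.21% and 7.29% were above background in the odor-enriched or the control bulb only. Hils1, which was not measured on both, had a level of −3.00 in the odor-enriched bulb and −6.19 in the control bulb. The 2 measured genes past 2-fold were H1foo, the oocyte linker histone, at 1.55 and Cenpa, the centromeric H3, at 1.19. H2afy, which encodes macroH2A, was lowest at −0.52, and H2afv, an H2A.Z gene, lay at −0.27.

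Markers of other cells in the bulb also differed. Of 14 T and NK cell genes 13 were measured and 11 were higher by 2-fold or more in the odor-enriched bulb, with a median of 3.88 (2.39 with the damping background correction) and a mean level of 0.81 in the odor-enriched bulb and −2.72 in the control bulb. Klrg1, a receptor of effector lymphocytes, had a level of 0.99 in the odor-enriched bulb and −5.44 in the control bulb, a difference of 6.43, and Cd8b1 differed by 5.25. Prf1 and Cd4 were lowest at 0.58 and 0.02, and Ncr1 did not pass the filter on dim probes. The part of these cells in the histone differences was not tested.
Of 8 endothelial genes 7 were at least 2-fold higher, with a median of 1.87 and a mean level of 1.84 in the odor-enriched bulb and 0.06 in the control bulb, led by Emcn at 3.10 and Flt1 at 1.95, with Pecam1 at 1.09 and Cldn5 at 0.71 lowest. Of 6 erythroid genes 3 were at least 2-fold higher, with a median of 1.02 (0.31 with quantile normalization); among the haemoglobin genes Hbb-b1 differed by 1.40, Hba-a2 by 1.17 and Hbb-b2 by 0.77. The part of blood and vessel cells in the histone differences was not tested.
Migrating neuroblasts, the young neurons that enter the adult bulb, had 10 of 10 markers measured and none past 2-fold, with a median of 0.16, from Dlx1 at −0.48 and Sp8 at −0.14 to Igfbpl1 at 0.81 and Dcx at 0.84. Mature bulb neurons had 8 of 8 measured and none past 2-fold, with a median of −0.47, from Rbfox3 at −0.91 and Calb2 at −0.88 to Tbr1 at −0.22 and Syt1 at 0.50. Levels of Rbfox3 were 2.36 in the odor-enriched bulb and 3.26 in the control bulb, so neuronal markers were detected on both arrays.

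**Figure D4:**
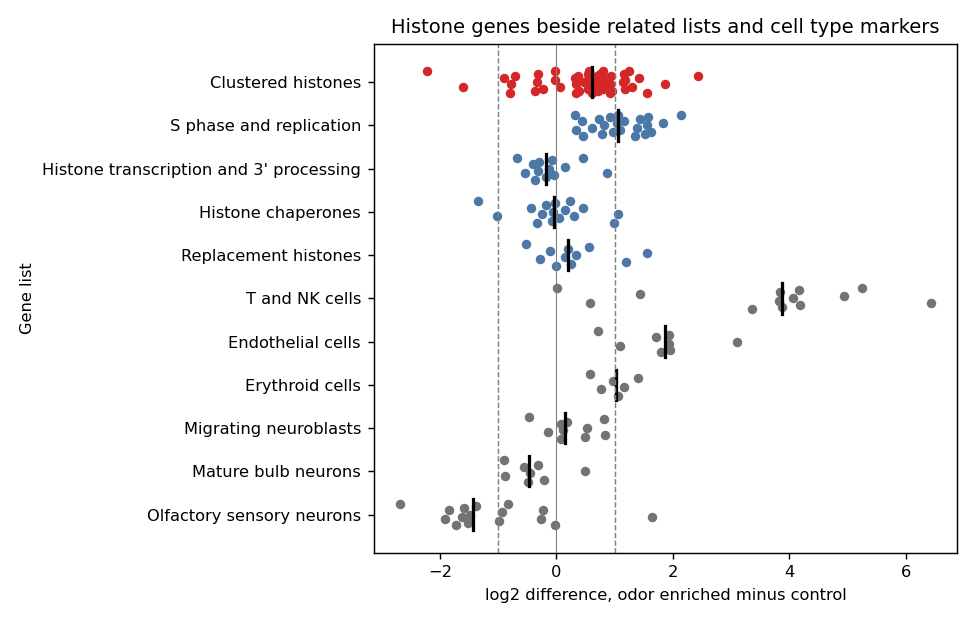
Log2 difference, odor enriched minus control, of each measured gene in the clustered histones and in 10 related or cell type marker lists, with the median of each list as a black bar and dashed lines at 2-fold. The histones (median 0.60) and the S phase and replication list (1.06) lie mostly above 0, T and NK cell markers (3.88) lie highest, and olfactory sensory neuron markers (−1.43) lie lowest.

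Directions rest on how the arrays were scaled. The 8 E1A spike-in probes that were well above background on both arrays had a median log2 ratio of 1.46, odor enriched over control, with a range from 1.22 to 4.44, and scaling on them put the median of all genes at −1.77 and that of the histone genes at −1.17. The histone median minus the median of all genes was 0.60. It cannot change under the 4 scalings that shift all genes by a constant per array, and it ran from 0.39 to 0.70 over the 10 other settings. Those 10 include keeping outlier-flagged spots and leaving out bright patches of the array. No histone spot was flagged or lay in such a patch, so these settings could hardly change it. The H2B median changed sign between settings, from −0.20 to 0.31 apart from the spike-in scaling.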

How the data were processed

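Total RNA of mouse olfactory bulb from 1 odor-enriched and 1 control mouse was hybridised to 1-colour Agilent arrays, scanned and extracted with Agilent Feature Extraction, per the file headers and the submitters' processing notes. The authors' deposited scanner files give processed intensity per spot, already background-subtracted. Of the non-control spots, 67.6% were well above background in the odor-enriched bulb and 73.7% in the control bulb. The number of arrays, 1 per condition, limits precision. The deposited log2 value table equals the log2 processed signal minus a constant per array for nearly all spots, with medians of −8.98 (odor enriched) and −9.48 (control); what set the constants is not given in the sources used here.

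From the processed intensity, control spots and outlier flags were left out, spots of a probe averaged on the log2 scale, and the array's 75th percentile subtracted. A gene's value is the mean over the probes that passed the scanner's well-above-background flag on each of the arrays. No p-values were computed; genes past 2-fold were counted beside all measured genes. Named members were those past 2-fold, those with probes of opposite sign, Hist2h2be, Hist1h1c and Hist1h2bc, and others by value or range; in each list the 2 highest and 2 lowest, except that a listed gene is not reported here. Members and lists were chosen with earlier results of these data known. Alternatives covered scaling, background correction, filters, probe summary and threshold. Calculations were tested on simulated data and run with Python 3.11.15, pandas 2.3.3, numpy 2.4.6 and limma 3.58.1 in R 4.3.3.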

Additional observations from a re-analysis of the deposited data

How the results depend on the processing

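Of the counts and medians recomputed under each alternative, 166 stayed within the spread between probes of a gene (or within 1.5 times, for counts), 9 moved further and 13 changed sign. That spread, 0.63, is larger than the histone median of 0.60, so a median could lose most of its size and still be among the 166. Some alternatives, such as keeping outlier-flagged spots, left every histone spot as it was. The 166 is therefore not a measure of stability. For lists and single genes the numbers were 322, 22 and 20, where a sign change was counted for lists and for genes past 2-fold. Leaving the spike-in scaling aside, the median over histone genes ran from 0.43 to 0.94, and Hist2h2be from −2.39 to −1.89. There is no replicate, and dim probes limit the single values that rest on them. No paired analysis was possible because each condition has 1 array.

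Scaled on the E1A spike-in probes, 0 histone genes were at least 2-fold higher and 31 lower. The medians were then −1.17 over all histone genes, −0.83 (H1), −0.89 (H2A), −1.80 (H2B), −1.23 (H3), −1.09 (H4), −1.07 (Hist1), −1.24 (Hist2), −2.11 (late probes), −0.98 (earlier probes) and −1.77 (all genes). List medians were −0.72 (S phase), −1.57 (replacement histones), −1.45 (polyadenylated histones), −1.62 (neuroblasts) and −0.75 (erythroid). Genes past 2-fold that changed sign were Hist1h1b (−0.22), Hist1h1a (−0.47), Hist1h1d (−0.60), Hist1h2ag (−0.52), Hist1h2ao (−0.59), Hist1h2an (−0.63), Hist1h2bf (−0.61) and Hist1h3c (−0.35). Below 2-fold, Hist1h1c (−1.45) and Hist1h2bc (−1.43) did too, and Hist1h1c was at −0.091 with the brightest probe.

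The H2B median was 0.058 with the percentile over detected probes, 0.028 with loess, 0.033 with normexp, 0.31 with the deposited table and 0.024 with no filter. The chaperone median was 0.044 with detected probes, 0.047 with quantile normalization, 0.15 with loess and 0.29 with the deposited table. The 3′ processing median was 0.16 with the deposited table, the polyadenylated median −0.091 with the brightest probe, and the neuroblast median −0.019 with centring on the array median. Counts moved to 1 lower with normexp, 24 higher with the deposited table, 27 higher and 6 lower at 1.5-fold, and 2 higher at 3-fold. The median of all genes shifted to −0.17 with array medians, 0.33 with the deposited table and 0.21 with no filter. Apart from the settings themselves, the cause was not tested.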

Other observations

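Of the 25 array probes with AAAGGCTCT that are not members, 1 reads a transcript that the file also lists for a member, the H2A gene Hist2h2aa2. That probe carries a transcript's name in place of a gene's. Its level was 4.36 in the odor-enriched bulb and 4.51 in the control bulb, a difference of −0.15, while the Hist2h2aa2 probe, which starts at base 457 of its transcript, had a level of 6.11 in the odor-enriched bulb and 5.51 in the control bulb, a difference of 0.60. The further probe starts at base 529.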
